A study of Mus musculus with 8 samples.

Results

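The accessible chromatin of 10 genes that control the cell cycle was examined in mouse multipotent progenitors: the D-type cyclins *Ccnd1*, *Ccnd2* and *Ccnd3*, the kinase gene *Cdk6*, the inhibitor genes *Cdkn1a*, *Cdkn1b*, *Cdkn1c* and *Cdkn2c*, and the Myc family genes *Myc* and *Mycn*. A peak belonged to a gene when its center fell inside the gene or no further than 20 kb before it or 10 kb after it, and when no other gene of the GENCODE vM21 annotation was closer. This gave 70 of 87642 MPP3 peaks and 66 of 86952 MPP4 peaks, for 10 of the 27680 genes with a peak in either cell type.

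Chromatin was profiled by ATAC-seq, which reads out where a transposase can reach the DNA. MPP3 and MPP4 cells are bone marrow progenitors with a myeloid and a lymphoid bias, and each library came from 5000 sorted C57BL/6J cells. For each cell type there were 2 libraries from *Ebf1* WT and 2 from *Ebf1* KO mice, 8 in all. MPP3 cells were sorted as lineage-negative, Sca-1 and Kit positive cells without CD150 and with CD48, and MPP4 cells with Flt3 in addition. The labels give Ebf1fl/fl Tie2Cre +/cre for *Ebf1* KO and Ebf1fl/fl Tie2Cre +/+ for *Ebf1* WT mice, so the floxed alleles were shared and Cre was carried by *Ebf1* KO mice alone. The design text of the series instead gives wild-type *Ebf1* with Tie2Cre for the controls. Tie2-Cre acts in endothelium and blood stem cells and thus deletes *Ebf1* long before the progenitor stage. The *Ebf1* WT MPP3 mice were 8 weeks old, the *Ebf1* KO MPP3 mice 8 and 9 weeks, the *Ebf1* WT MPP4 mice 9 weeks and the *Ebf1* KO MPP4 mice 8 weeks. All were female except replicate 2 of the *Ebf1* WT MPP4 mice.

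D-type cyclins bind CDK4 and CDK6, and the active kinases phosphorylate the retinoblastoma protein, which releases E2F factors and lets a cell leave G1. CIP/KIP inhibitors (*Cdkn1a*, *Cdkn1b*, *Cdkn1c*) bind cyclin-CDK complexes, INK4 inhibitors such as *Cdkn2c* bind CDK4 and CDK6 themselves, and MYC proteins raise cyclin expression and cell growth. In blood stem and progenitor cells the balance of these genes sets how long cells rest before they divide, with p57 (*Cdkn1c*) known for keeping stem cells quiescent and CDK6 for their exit from quiescence.

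The level used here is the authors' mean log2 CPM of a peak (reads of a peak relative to library size, CPM, on the log2 scale), a single value over the 4 libraries of a cell type. It mixes *Ebf1* WT and *Ebf1* KO cells, and the files used here hold no value per library, so it carries no SD and no difference below could be set against the spread between libraries. More accessible chromatin in each cell and a larger share of cells with open chromatin cannot be told apart. The peaks of the cell cycle and Myc genes were more accessible than most. Their median level was 3.317 in MPP3 cells, beside 2.24 for all MPP3 peaks, and 3.63 in MPP4 cells, beside 2.35 for all MPP4 peaks. In MPP3 cells 54 of the 70 peaks (77.1%) and in MPP4 cells 52 of the 66 (78.8%) lay above the median of their table. TSS peaks, centered no more than 1 kb from where a transcript starts, made up 24 of the 70 MPP3 peaks (34.3%, against 26.3% of all MPP3 peaks) and 22 of the 66 MPP4 peaks (33.3%, against 26.6%). The TSS peaks had a median level of 4.56 in MPP3 and 4.49 in MPP4 cells, and the other (distal) peaks 2.54 and 2.87. For all TSS peaks the medians were 3.56 and 3.54, and for all distal peaks with a gene 1.98 and 2.07. Most distal peaks were intronic, 35 of 46 in MPP3 and 34 of 44 in MPP4 cells.

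Each of the 10 genes had a TSS peak in both cell types. To compare genes, the highest TSS peak of each was expressed per length, as log2 CPM per kb. In MPP3 cells *Ccnd3* (6.996) and *Myc* (6.98) led on this scale, followed by *Cdkn1b* (6.76) and *Ccnd2* (6.54). The *Ccnd3* peak lay at a noncoding exon inside the gene, 2.2 kb past its downstream RefSeq start. The TSS peak at that RefSeq start had 6.63 log2 CPM per kb in MPP3 cells, below *Myc* and *Cdkn1b*, and the peak at the upstream start had 5.21. *Cdkn2c* (6.13), *Cdk6* (6.11), *Cdkn1a* (6.09) and *Mycn* (5.97) lay close together in log2 CPM per kb, and *Cdkn1c* (5.79) and *Ccnd1* (5.73) were lowest. In MPP4 cells the order in log2 CPM per kb began with *Myc* (6.88), *Cdkn1b* (6.71) and *Ccnd3* (6.64), and *Cdkn1c* was last at 5.39. Among all autosomal protein-coding genes with a TSS peak, the median was 5.59 in MPP3 and 5.52 in MPP4 cells on the same scale. All 10 genes were above it in MPP3 cells, and *Cdkn1c* was the exception in MPP4 cells.

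The D-type cyclins had 27 MPP3 and 25 MPP4 peaks. *Ccnd1*, the cyclin D gene that many mitogens induce (chr7:144929931-144939925, minus strand), had 6 MPP3 and 4 MPP4 peaks. With 50 kb on each side *Ccnd1* had 9 peaks in each cell type. Its TSS peaks lay in the 5′ UTR and in the first part of the gene, where a short transcript starts. At the 5′ UTR (chr7:144939651-144939975 in MPP3 cells) the level was 3.78 in MPP3 and 4.21 in MPP4 cells, and at the intronic TSS peak it was 3.92 and 4.11. The *Ccnd1* starts were therefore modestly more accessible in the MPP4 table. An upstream peak 1710 bp from the start was of similar level (3.89 and 4.01), and the next upstream peak (chr7:144943414-144943667 in MPP3 cells) was lower in MPP4 cells (3.16 and 2.76). The MPP3 table alone held a *Ccnd1* peak in the 3′ UTR (chr7:144932475-144932721, level 2.57) and a weak peak 8808 bp upstream (0.96).

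*Ccnd2*, a cyclin of proliferating lymphoid and myeloid progenitors (chr6:127125162-127152193, minus strand), was among the most accessible of these genes at its 5′ end. The MPP3 table held a pair of peaks there, at chr6:127151612-127152014 (level 5.33) and chr6:127152151-127152786 (5.88), where the MPP4 table held a single peak of 1133 bp (chr6:127151586-127152718, 6.58). Set against this joined peak, the MPP3 peaks had differences (MPP4 minus MPP3) of 1.26 and 0.70 on the log2 CPM scale, but of −0.23 and −0.13 per kb of peak. When the CPM of the overlapping peaks were summed, which was chosen after seeing the data, MPP3 cells had 99.1 CPM and MPP4 cells 95.9 CPM. MPP4 cells were thus higher on the log2 CPM scale of single peaks, but not per kb or in the summed CPM. A further TSS peak (chr6:127150932-127151191 in MPP3 cells) had levels of 4.49 and 4.34. The highest distal peak was intronic, 3370 bp from the nearest start, at 3.93 and 3.84, and a peak in a noncoding exon (chr6:127147757-127148005 in MPP3 cells) had 3.33 and 3.73.

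*Ccnd3*, the cyclin D gene needed for expansion of early B and T cells (chr17:47505051-47599691, plus strand), had 15 MPP3 and 16 MPP4 peaks. RefSeq places starts at position 47505051 and at position 47593467, and the upstream start had the weaker TSS peak (level 3.33 in MPP3 and 3.03 in MPP4 cells). At the downstream start (chr17:47593252-47593746 in MPP3 cells, 5′ UTR) the level was 5.61 and 5.47, and at a noncoding exon 2.2 kb further (chr17:47595420-47595975) it was 6.15 and 5.84. All 3 shared TSS peaks were lower in MPP4 cells, by both the level and the level per kb. Between these starts the long intron held a row of distal peaks. The highest, at chr17:47521518-47521962 in MPP3 cells and 71.7 kb upstream of the downstream start, reached 5.68 in MPP3 and 5.81 in MPP4 cells. It was the first of 5 neighboring shared peaks, spanning chr17:47521512-47542622, that were all higher in MPP4 cells, a run noticed after the values were seen. Going downstream, their differences on the log2 CPM scale were 0.13, 0.40, 0.54, 0.88 and 0.73, and per kb they were 0.23, 0.33, 0.48, 0.85 and 0.68. The same span held an MPP3 peak without an MPP4 counterpart (chr17:47535899-47536140, level 2.18). Of the 10 shared distal peaks of *Ccnd3*, 5 were higher and 5 lower in MPP4 cells, and 6 were higher per kb. At the intronic peaks on either side of the run the direction on the log2 CPM scale was the opposite. Nearer the upstream start, the peak at chr17:47511099-47511525 had a difference of −0.47, and beyond the run the peak at chr17:47567340-47567630 had −0.22. An intronic *Ccnd3* peak at chr17:47556652-47557258 had the lowest difference of all 54 shared peaks (−1.30), but its MPP4 counterpart was 238 bp long against 607 bp, and per kb the difference was 0.049.

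*Cdk6* (chr5:3341485-3531008, plus strand) encodes the partner kinase of these cyclins that predominates in blood progenitors. It is the longest of the 10 genes, with 23 MPP3 and 21 MPP4 peaks. The TSS peaks stood within a few kilobases of one another, with levels of 4.36, 5.66, 5.10 and 4.69 in MPP3 cells. Their MPP4 counterparts had 4.36, 5.03, 4.86 and 4.57, so none of the 4 shared TSS peaks was higher in MPP4 cells. The difference was largest at the intronic TSS peak chr5:3342512-3343245 (−0.63, and −0.48 per kb). Per kb the peak at chr5:3341204-3341571 was nearly as far apart (−0.45), since its MPP4 counterpart was longer. At the distal peaks assigned to *Cdk6* the direction was mostly the other way. On the log2 CPM scale 9 of the 11 shared distal peaks were higher in MPP4 cells, and 7 of the 11 were so per kb. Over all shared peaks 59.4% of distal peaks with a gene and 37.5% of TSS peaks were higher in MPP4 cells on the log2 CPM scale, so the split is not particular to *Cdk6*. The most accessible distal peak assigned to *Cdk6*, in an intron 61036 bp from the nearest start (chr5:3405132-3405565 in MPP3 cells), had a level of 4.61 in MPP3 and 5.18 in MPP4 cells. The intronic peak 19260 bp from the nearest start had 2.27 and 2.96, and the intronic peak at chr5:3512659-3512954 had 2.39 and 1.91. The median level of all *Cdk6* peaks was 2.06 in MPP3 and 2.61 in MPP4 cells, near the 2.24 and 2.35 of all peaks. An intronic peak at chr5:3437205-3437431 consisted to 83.7% of bases that the genome file masks as repeats, against a median of 7.79% over all MPP3 peaks. Peaks inside *Cdk6* that lie closer to a noncoding gene were not counted for *Cdk6*. The highest of these in MPP3 cells, assigned to *Gm42435* (chr5:3497531-3498039), had a level of 5.55 there and of 5.13 in MPP4 cells. Others of *Gm42435* had 3.91 and 2.99 (chr5:3494387-3494703 in MPP3 cells) and 4.77 and 5.16 (chr5:3502555-3502976). Those of *Gm17590* with a counterpart had 2.24 and 0.62 (chr5:3472813-3473159) and 2.34 and 0.86 (chr5:3479825-3480182). Only the peak at chr5:3502555-3502976 was higher in MPP4 cells, so the count of higher distal peaks depends on the assignment.

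**Figure D1:**
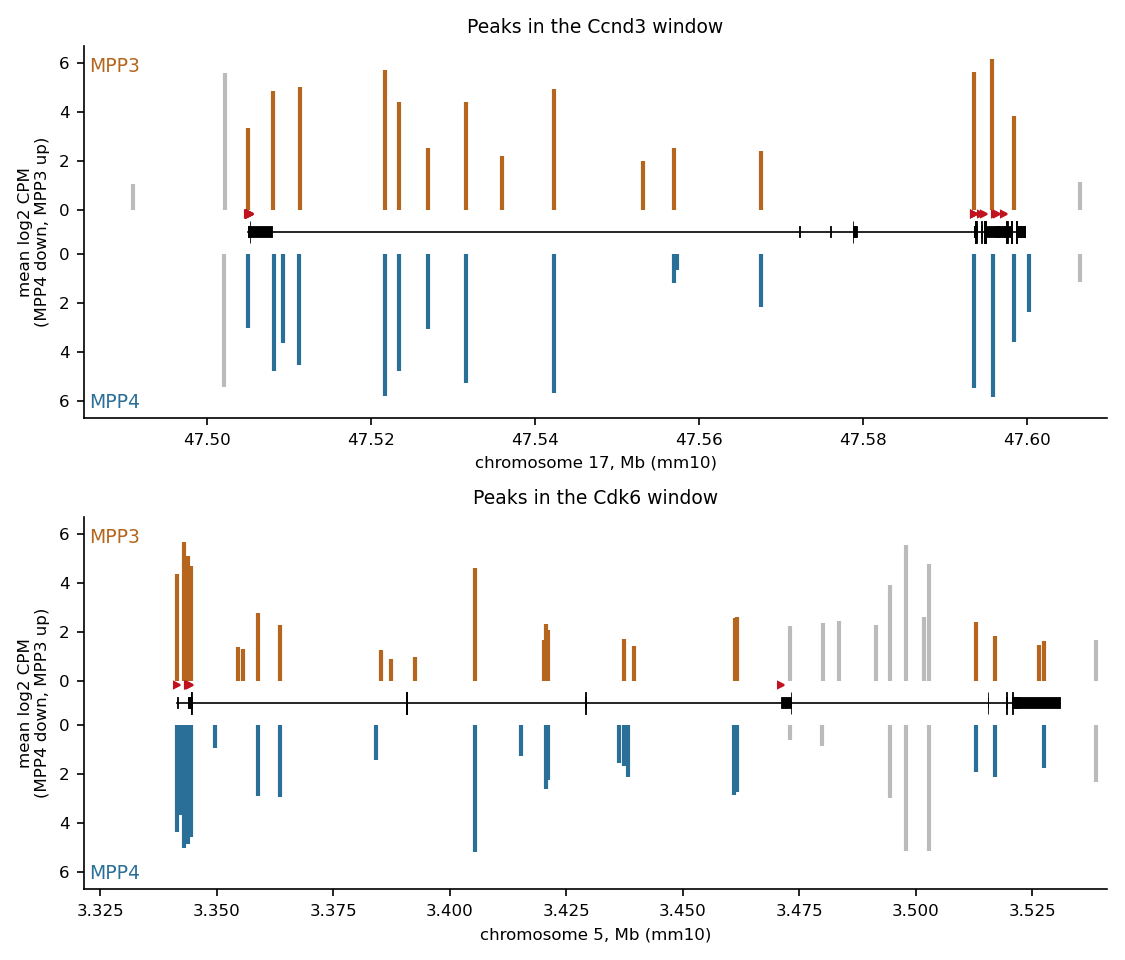
Peaks in the *Ccnd3* and *Cdk6* windows on mm10, with the chromosome position in Mb on the x axis and the authors' mean log2 CPM as line height (MPP3 upward in brown, MPP4 downward in blue). Gray lines are peaks assigned to a closer gene, black boxes are exons (tall boxes are coding) and red arrowheads are transcript starts. The long *Ccnd3* intron holds a row of peaks with levels of up to 5.81, whereas most distal *Cdk6* peaks are lower.

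The CIP/KIP inhibitor genes had 9 peaks in each cell type, and all of them lay above the median level of their table, which does not hold when peaks are given to protein-coding genes only. *Cdkn1a*, which encodes the p53 target p21 (chr17:29090976-29100727, plus strand), was most accessible outside its TSS peak. An intronic peak 1718 bp from the nearest start (chr17:29095230-29095767 in MPP3 cells) had a level of 6.15 in MPP3 and 5.65 in MPP4 cells, and the TSS peak (chr17:29093550-29093867) had 4.44 and 4.36. A second intronic peak at chr17:29099032-29099359 had 4.19 and 3.49. All 3 shared *Cdkn1a* peaks were thus lower in MPP4 cells, with differences of −0.080, −0.50 and −0.70, and they were lower per kb as well (−0.24, −0.36 and −0.56). The MPP4 table alone held another intronic peak of *Cdkn1a*, at chr17:29094930-29095093 (level 3.36). Upstream of *Cdkn1a*, 4 MPP3 and 3 MPP4 peaks of its window belonged to the long noncoding RNA gene *Trp53cor1*, and the nearest of them (chr17:29081996-29082337 in MPP3 cells) had a level of 3.34 in MPP3 and 4.38 in MPP4 cells. The next (chr17:29078919-29079266 in MPP3 cells) had the opposite direction, at 3.81 and 3.23.

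*Cdkn1b*, which encodes p27 (chr6:134920401-134925513, plus strand), had a strong TSS peak over its 5′ UTR with nearly equal levels, 6.14 in MPP3 and 6.12 in MPP4 cells. Its distal peaks lay in an intron (3.04 and 3.01) and in the 3′ UTR (3.30 and 3.58). A peak of its window that belonged to the noncoding gene *Gm44238* (chr6:134928285-134929067 in MPP3 cells) had 6.25 and 5.82, and was thus about as accessible as the *Cdkn1b* start. *Cdkn1c*, the imprinted gene of p57 (chr7:143458339-143461050, minus strand), was less accessible at its TSS peak (chr7:143460892-143461336 in MPP3 cells), at 4.63 in the MPP3 table and 4.21 in the MPP4 table. The difference was −0.42, and −0.40 per kb. An upstream peak of *Cdkn1c*, 5342 bp from the start, had 3.63 and 3.85, and another peak 3026 bp upstream was found in the MPP3 table alone.

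*Cdkn2c*, which encodes the INK4 inhibitor p18 that limits the self-renewal of blood stem cells (chr4:109660876-109667189, minus strand), had no distal peak under the closest-gene rule, although a peak of its window that belonged to *9630013D21Rik* (chr4:109657041-109657751 in MPP3 cells) had 3.86 and 3.37, with the opposite direction per kb (4.35 and 4.54), and another that belonged to *Faf1* had 5.59 and 5.18. Its 5′ UTR peak (chr4:109666672-109667247 in MPP3 cells) had a level of 5.34 in MPP3 and 5.08 in MPP4 cells. A pair of weaker peaks further into the 5′ UTR, with levels of 2.91 and 2.49, was found in the MPP3 table alone.

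*Myc*, the central growth regulator of the family (chr15:61985391-61990374, plus strand), had the highest single level of all peaks of these genes. Its promoter peak (chr15:61984897-61985767 in MPP3 cells) reached 6.78 and 6.67. The TSS peaks beside it, at chr15:61984383-61984597 (4.12 and 4.10) and at chr15:61987008-61987529 (5.07 and 4.98), were also close in level between the cell types. An upstream peak of the *Myc* window that belonged to *Gm37947* (chr15:61983354-61983653 in MPP3 cells) had 4.29 and 4.01, and 6.02 and 5.98 per kb. A weak peak downstream of *Myc* (chr15:61999698-61999944 in MPP3 cells) reached 2.58 in MPP4 cells, with a difference of 0.98 on the log2 CPM scale and of 0.44 per kb. The distant enhancers known to act on *Myc* in blood stem cells lie far outside the window and were not analysed here. *Mycn*, which can stand in for *Myc* in blood stem cells (chr12:12936093-12941914, minus strand), was less accessible at its start in log2 CPM per kb. Its upstream TSS peak (chr12:12942354-12942713 in MPP3 cells) had a level of 4.50 in MPP3 and 4.80 in MPP4 cells, and its 5′ UTR peak had 4.28 and 4.41. The 3 shared TSS peaks of *Mycn* were higher in MPP4 cells on the log2 CPM scale, and 2 of the 3 were higher per kb. The highest distal peak of *Mycn* was intronic (chr12:12938387-12938635 in MPP3 cells). It had 3.01 in MPP3 and 2.93 in MPP4 cells, and 5.02 and 5.03 per kb. The MPP4 table alone held a *Mycn* peak in a coding exon (chr12:12937108-12937457, level 2.85) and a downstream peak (1.33).

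Of all MPP3 peaks 24.3% overlapped no MPP4 peak by at least 1 bp, and of all MPP4 peaks 23.3% overlapped no MPP3 peak. For the cell cycle and Myc genes these were 16 of 70 MPP3 peaks (22.9%) and 13 of 66 MPP4 peaks (19.7%), near the background. The peaks without a counterpart had a median level of 1.55 in MPP3 and 2.12 in MPP4 cells, against 4.03 and 4.10 for those with one, and against 1.21 and 1.20 for all peaks without one. *Cdk6*, the gene with the most peaks, held 8 of the 16 MPP3 peaks and 6 of the 13 MPP4 peaks. These were 34.8% of its 23 MPP3 peaks and 28.6% of its 21 MPP4 peaks. The highest peaks without a counterpart were a *Cdkn2c* peak in MPP3 cells (2.91) and a *Cdk6* TSS peak in MPP4 cells (chr5:3342119-3342306, 3.67). The next in MPP4 cells lay in the *Ccnd3* intron (chr17:47509107-47509374, 3.64). Others in MPP3 cells, each the highest of its gene, had 2.87 for *Ccnd2* (chr6:127142564-127142788), 2.18 for *Ccnd3* (chr17:47535899-47536140) and 1.66 for *Cdk6* (chr5:3420062-3420290), and the *Ccnd2* peak found in MPP4 cells alone (chr6:127142170-127142403) had 2.56. Peaks were called on merged replicates, so that their presence cannot be compared between libraries.

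The MPP3 and MPP4 tables were normalized separately, and the levels set side by side are a description with no test. Over the 54 MPP3 peaks of these genes with an MPP4 counterpart, the median difference (MPP4 minus MPP3) was −0.015 on the log2 CPM scale, beside 0.039 for all 66324 shared peaks. Of the 54, 26 were higher and 28 lower in MPP4 cells. Differences of at least 1 log2 unit were found at 6.05% (higher in MPP4 cells) and 3.78% (lower) of all shared peaks, and at 1 and 1 of the 54. These were the *Ccnd2* and *Ccnd3* peaks whose counterpart had other bounds, and neither kept its direction per kb. Such small counts were not tested against the shares of all peaks. For 41 of the 54 (75.9%) the levels differed by at most 0.5, against 65.3% of all shared peaks. The median on the log2 CPM scale was −0.084 at the 22 shared TSS peaks and 0.13 at the 32 shared distal peaks, and per kb it was −0.13 and 0.050. Over all peaks the same medians were −0.12 for TSS peaks and 0.13 for distal peaks with a gene, and −0.090 and 0.022 per kb, so the distal shift was much smaller once peak length was counted. The 5 largest differences were those of the *Ccnd2* 5′ peaks (1.26 and 0.70), the downstream *Myc* peak (0.98) and the *Ccnd3* intronic peaks at chr17:47531326-47531893 (0.88) and chr17:47542032-47542600 (0.73). The 5 lowest were those of the *Ccnd3* peak with other bounds (−1.30), the distal *Cdkn1a* peaks (−0.70 and −0.50), the *Cdk6* TSS peak (−0.63) and the *Cdk6* peak at chr5:3512659-3512954 (−0.48). Among all shared peaks the central 90% of differences ran from −0.88 to 1.07, and 52 of these 54 lay within it.

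**Figure D2:**
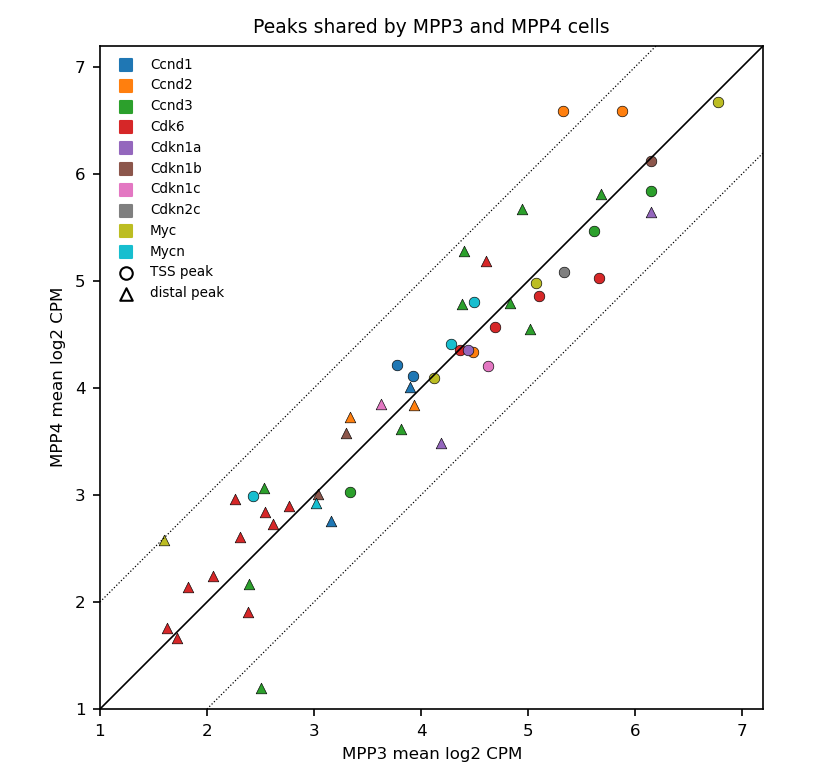
Levels of the 54 shared peaks, with the authors' mean log2 CPM in MPP3 cells on the x axis and in MPP4 cells on the y axis. Circles are TSS peaks, triangles are distal peaks, colors are genes, the solid line marks equal levels and dotted lines a difference of 1. The pair of *Ccnd2* circles at a level of 6.58 in MPP4 cells shares a single MPP4 peak.

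Other genes of the pathway were compared at their starts. All 41 of them had a TSS peak in MPP3 cells and 40 had one in MPP4 cells, where 67.5% and 67.3% of autosomal protein-coding genes had one. Their median was 6.27 log2 CPM per kb in MPP3 and 6.10 in MPP4 cells, beside 6.12 and 6.05 for the 10 genes. On the log2 CPM scale 35 of 40 had a lower TSS level in MPP4 cells, and 7 of the 10 genes had, where 71.4% of all protein-coding genes with a TSS peak in both tables had. Per kb of peak 32 of 40 were lower, and 8 of the 10 genes, beside 66.5% of all protein-coding genes. These counts take the highest TSS peak in each table, which can lie at different starts. That was so for *Cdkn2a*, among the 35, and for *Ccnd1*, which was higher in MPP4 cells. The median difference was −0.22 for the pathway and −0.17 for all protein-coding genes, so most of this shift was shared by genes at large. Among the other cyclins, *Ccna2*, the S-phase cyclin, was highest (7.35 log2 CPM per kb in MPP3 and 7.40 in MPP4 cells), and *Ccna1*, a cyclin of the germ line, was lowest with 3.04 in MPP3 cells and no TSS peak in MPP4 cells. Of the other CDK genes, *Cdk4* was highest (7.07 in MPP3 cells) and *Cdk2* lowest (5.36) in log2 CPM per kb. The other INK4 genes were far apart per kb. *Cdkn2d*, which encodes p19, had 8.54 log2 CPM per kb in MPP3 and 8.20 in MPP4 cells, whereas *Cdkn2b* had 4.32 and 4.12, and *Cdkn2a*, the locus of p16 and ARF, was lowest. Its highest TSS peak had 4.17 log2 CPM per kb in MPP3 cells (chr4:89294625-89294913) and 2.97 in MPP4 cells (chr4:89282039-89282403), but these lie at different starts and are not a comparison of the same peak. Among Rb and E2F genes, *E2f3* was highest (8.11 and 8.07 log2 CPM per kb) and *Rbl1* lowest (4.60 and 4.44). In the Myc network, the MYC antagonist *Mxd4* was highest (8.68 and 8.50 log2 CPM per kb) and *Mycl* lowest (4.74 and 4.92). Of the genes for degradation of cell cycle proteins, *Fbxw7*, whose product marks cyclin E and MYC for degradation, was highest (7.89 and 7.62 log2 CPM per kb). The lowest was *Cdc20* in MPP3 cells (6.24) and *Skp2* in MPP4 cells (6.00).

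**Figure D3:**
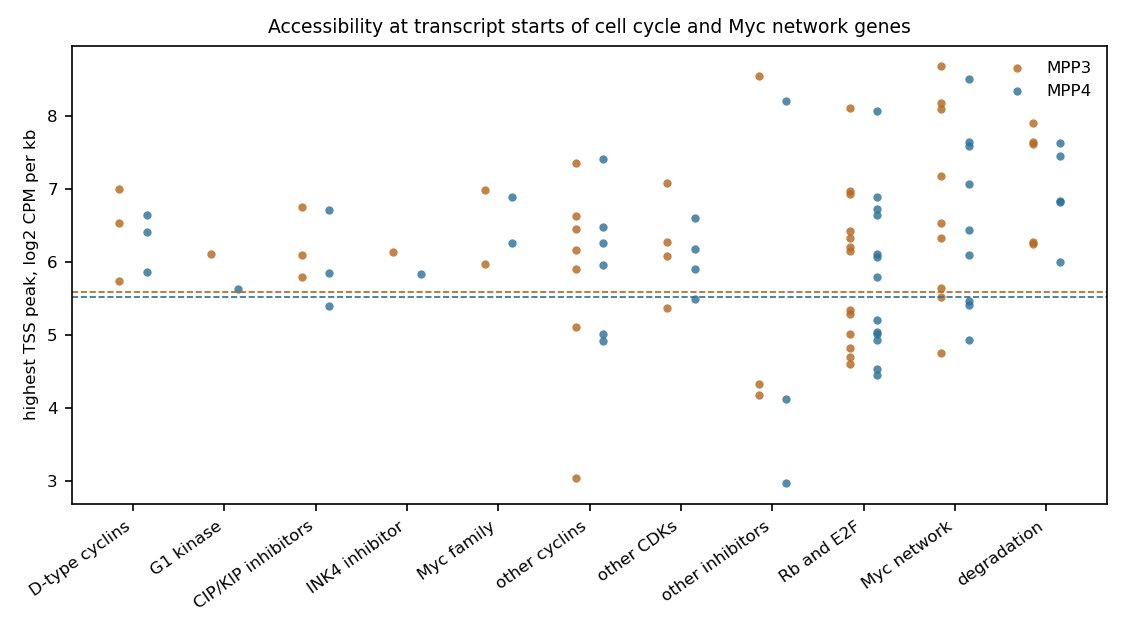
Highest TSS peak of each gene in log2 CPM per kb on the y axis, by gene list on the x axis, in MPP3 (brown) and MPP4 (blue) cells. Dashed lines are the medians of all autosomal protein-coding genes with a TSS peak (5.59 and 5.52), and *Cdkn2d* and *Cdkn2b* stand far apart within the other inhibitors.

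The sorted cells were compared with markers of their gates, and with *Cd34*, a progenitor marker that was not part of the gates. The level of the highest *Flt3* TSS peak was 5.92 in MPP3 and 7.01 in MPP4 cells, *Kit* had 5.54 and 5.63, and *Cd34* 4.76 and 5.16. Per kb the differences were smaller for *Flt3* (0.56, against 1.08) and *Cd34* (0.12, against 0.39). The MPP3 gate as labelled names no Flt3, so *Flt3* accessibility in MPP3 cells may include Flt3-positive cells, which was not tested. *Cd48* had 2.77 and 2.30, with the opposite direction per kb (3.86 and 3.96). *Ly6a*, which encodes Sca-1, had no TSS peak in MPP3 cells and a weak one in MPP4 cells (1.15). *Slamf1*, which encodes CD150 and is gated out, had 1.42 and 1.33, again with the opposite direction per kb (3.71 and 3.88). Of 6 lineage genes, 2 had a TSS peak in MPP3 and 4 in MPP4 cells, with *Itgam* highest (2.85 and 3.17), and *Cd3e* and *Ly6g* had none in either table. The part of such cells in the levels above was not tested.

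Sequence was examined with consensus letters on both strands of each peak. The peaks of these genes were slightly longer than all peaks (median 288.5 bp against 273 bp in MPP3 cells, 301 bp against 285 bp in MPP4 cells) and richer in GC (56.7% against 52.5%, and 57.4% against 51.9%). The GC box GGGCGG was found in 23 of 70 MPP3 peaks (32.9%, 95% Wilson interval 23.0 to 44.5), beside 21.8% of all MPP3 peaks, and in 22 of 66 MPP4 peaks (33.3%), beside 22.0%. At TSS peaks alone it was in 15 of 24 MPP3 peaks (62.5%), beside 54.5% of all MPP3 TSS peaks. E2F letters (TTTCCCGC, TTTCGCGC, TTTGCCGC or TTTGGCGC) were in 3 of 70 MPP3 peaks (4.29%, interval 1.47 to 11.9), beside 1.64% of all. These were a promoter peak of *Myc*, an upstream peak of *Ccnd1* and the 5′ UTR peak of *Mycn*. The Myc-type E-box CACGTG was in 7 of 70 MPP3 peaks (10.0%), beside 7.35% of all, but in 4 within 300 bp around the peak center. The E2A-type E-boxes CAGGTG and CAGCTG were in 22 of 70 (31.4%), beside 38.7%, although there were more matches of them per kb (2.01, beside 1.73 for all). The *Ccnd3* peak at chr17:47542032-47542600 held 5 E2A-type matches, the most of any listed peak. Letters for ETS factors (CCGGAAGT) were in 0 of 70 MPP3 peaks, beside 2.05% of all, and those for PU.1 (GAGGAAGT) in 4, beside 9.56%. RUNX letters (TGTGGTT) were in 6 of 70, beside 12.4%. The GATA letters AGATAA were also in 6, beside 11.5%. In MPP4 cells the same letters were in 0, 2, 8 and 5 of 66 peaks, beside 2.03%, 10.9%, 13.9% and 9.85% of all. The Wilson interval of each of these 4 held the share of all peaks, except for PU.1 in MPP4 cells (interval 0.83 to 10.4). With MPP4 peaks split by kind, the PU.1 interval held the share of all such peaks. It was 1.26 to 15.1 at distal peaks (12.4% of all) and 0 to 14.9 at TSS peaks (6.54% of all). The Wilson intervals cover counting error only, and a match of letters does not show binding.

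EBF1 letters (TCCCNNGGG, or CCCNNGGGA as its reverse complement) were in 4 of 70 MPP3 peaks (5.71%, 95% Wilson interval 2.24 to 13.8), beside 7.46% of all MPP3 peaks. In MPP4 cells they were in 5 of 66 (7.58%, interval 3.28 to 16.5), beside 6.49%. The matches lay in an intron and at the 5′ end of *Ccnd2*, in the long intron of *Ccnd3*, in the 3′ UTR of *Cdk6* and, in MPP4 cells, in a *Cdk6* TSS peak. The intronic matches of *Ccnd2* (chr6:127143387-127143455, minus strand, level 3.93 in MPP3 cells) and *Ccnd3* (chr17:47521814-47521882, plus strand, level 5.68 in MPP3 cells) lie in the highest distal peak of each gene, and are shown from mm10 (GRCm38) with the matched letters in capitals.
*Ccnd2* intron: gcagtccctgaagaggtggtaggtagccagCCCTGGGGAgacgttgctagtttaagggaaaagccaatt
*Ccnd3* intron: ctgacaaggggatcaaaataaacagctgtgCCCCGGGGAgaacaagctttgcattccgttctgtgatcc

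RefSeq promoters of GRCm38.p6 (250 bases before to 50 after the start) were matched for 6 of the 10 genes, with 9 promoters in all. *Ccnd1*, *Ccnd2*, *Cdkn1c* and *Myc* had no entry in the table used. Of the 9 promoters 7 overlapped a peak in both cell types. The GC box was in 6 of the 9, beside 35.7% of 32851 promoters, and each of these 6 overlapped a peak. The *Cdk6* promoter overlapped a peak (5.10 and 4.86) without a GC box. The promoters without a peak were the upstream promoter of *Cdkn1a* and the downstream promoter of *Cdkn2c*, and neither held a GC box. The share of all promoters that overlap a peak, with or without a GC box, is not given here, so these counts have no background. The *Cdkn1a* promoters are shown to let a start without a peak be compared with one that has a peak. Bases in exons are left out, and GC boxes (GGGCGG on the strand shown) are in capitals. The upstream part is chr17:29090729-29090975 (no peak, GC content 54.3%) and the downstream part is chr17:29093519-29093768 (level 4.44 in MPP3 cells, GC content 64.8%), both on the plus strand of mm10.
*Cdkn1a* upstream start: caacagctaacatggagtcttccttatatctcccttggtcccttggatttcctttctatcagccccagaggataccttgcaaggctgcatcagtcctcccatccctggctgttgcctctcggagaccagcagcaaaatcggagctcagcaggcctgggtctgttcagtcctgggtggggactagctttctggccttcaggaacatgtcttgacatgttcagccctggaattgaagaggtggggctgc
*Cdkn1a* downstream start: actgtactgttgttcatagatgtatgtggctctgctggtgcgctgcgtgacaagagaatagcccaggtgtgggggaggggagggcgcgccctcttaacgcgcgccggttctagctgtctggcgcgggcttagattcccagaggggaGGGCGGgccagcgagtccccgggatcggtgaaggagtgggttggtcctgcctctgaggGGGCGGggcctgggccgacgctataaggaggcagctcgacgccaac

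E2F letters were found in 1 of the 9 promoters, beside 2.26% of all promoters. This was the *Mycn* promoter (chr12:12941787-12942086), which holds 3 matches and overlaps the 5′ UTR peak with a level of 4.28 in MPP3 and 4.41 in MPP4 cells. The bounds of the MPP3 peak held all 3 matches, and those of the MPP4 peak held 1. The part of the promoter before the exons (mm10, chr12:12941915-12942086, minus strand) is shown because the matches overlap or stand side by side, with E2F letters in capitals.
*Mycn* promoter: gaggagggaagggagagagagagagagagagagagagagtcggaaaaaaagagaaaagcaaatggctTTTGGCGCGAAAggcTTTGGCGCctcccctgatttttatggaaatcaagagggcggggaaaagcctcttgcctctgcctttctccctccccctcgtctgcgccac

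Limits apply to all of these results. A level is a mean over both genotypes, so nothing here speaks to loss of *Ebf1*, and the spread between libraries is unknown. The MPP3 and MPP4 tables have their own peak bounds and normalization, and mouse age and sex were not balanced across cell types. Assignment to the closest gene leaves out distant enhancers and gives some peaks inside *Cdk6* to noncoding genes. Accessibility is not expression, and matched letters are not bound sites. Whether any of the differences affects cell division was not tested.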

How the data were processed

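ATAC-seq libraries of MPP3 and MPP4 cells, 2 for each genotype and cell type, were grouped by their labels. Per the submitters' processing notes and the study's methods, the authors trimmed adapters with cutadapt 2.10, aligned reads to mm10, removed duplicates, kept short fragments with deepTools 3.3.2, called peaks with MACS2 2.2.7.1 on merged replicates, joined *Ebf1* WT and *Ebf1* KO peaks of each cell type, and fitted counts with edgeR 3.32.0 in R 4.0.3. The authors deposited, for each peak, the mean log2 CPM over the 4 libraries of a cell type. The deposited tables also hold the authors' genotype comparison (a fold change, its F statistic, p-value and adjusted p-value), which was not used here. Only short fragments from nucleosome-free DNA enter the values. Read depth was not used here.

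Peaks were assigned to the gene whose transcript start, center or end was closest to the peak center. TSS peaks lay within 1 kb of a transcript start, and peaks of the cell types were matched by at least 1 bp, taking the largest overlap. The level per kb is the log2 CPM minus log2 of the peak length in kb. In the summary of TSS levels by gene, the highest peak within 1 kb of any start was used, whichever gene it was assigned to. Sequence was read from GRCm38.p6, on which 339 of 341 GENCODE transcripts of the member, pathway and marker genes matched in their opening 10 bases. For each gene, the TSS and distal peak with the highest level and the highest peak found in 1 cell type only were named, with the 5 largest and 5 smallest differences. No test was run, since the tables hold 1 value for each peak. Members and lists were chosen with earlier results of these data known. Assignment, overlap and motif functions were tested on simulated data. Python 3.11.15, numpy 2.4.6, pandas 2.3.3, scipy 1.17.1, pysam 0.24.0 and matplotlib 3.10.9 were used. Alternatives covered the assignment window, the gene set, the overlap, the scale and low values.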

Additional observations from a re-analysis of the deposited data

How the results depend on the processing

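Over the 10 genes together, the count of peaks stayed within 1.5 times under each alternative for the window, the gene set and low values. So did the count of TSS peaks with a narrower window around starts and with protein-coding transcripts, and the count of peaks with a counterpart at 50% overlap. With protein-coding genes only, the genes had 90 MPP3 and 80 MPP4 peaks, the widest departure from 70 and 66. Counts of single genes moved further. *Cdkn1a* went from 3 to 7 MPP3 and from 4 to 7 MPP4 peaks, *Cdkn1b* from 3 to 5 MPP3 peaks and *Cdkn2c* from 1 to 2 MPP4 peaks with protein-coding genes only. With 50 kb on each side *Ccnd1* went from 6 to 9 MPP3 and from 4 to 9 MPP4 peaks. By the closest transcript start, *Cdkn1a* fell to 2 peaks in each cell type. Peak counts per gene thus depend on the assignment. Of the motif counts, the Myc-type E-box in MPP3 cells went from 7 peaks to 4 within 300 bp around the peak center, which holds fewer bases than long peaks. The median level was 5.21 (MPP3) and 5.32 (MPP4) in log2 CPM per kb, and 3.33 and 3.66 for peaks with a mean log2 CPM of at least 1. The median difference of shared peaks was −0.071 per kb, −0.024 with 50% of each peak covered, −0.054 after centering on all shared peaks, −0.029 at a mean log2 CPM of at least 3 in both cell types, and −0.026 with overlapping peaks joined, an alternative added once the data had been seen. The direction per kb was the opposite for 9 of the 54 shared peaks. No paired analysis was possible because the tables hold 1 mean over libraries for each peak and no result comes from a test, and for the same reason no library could be left out in turn. Weak peaks rest on few fragments, and their levels and presence are the least certain.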
